A study of Mus musculus with 4 samples.

Results

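The 9 genes described here encode subunits of the transcription factor NF-kB and proteins that feed back on it: Rela, Relb, Nfkb1 and Nfkb2 (subunits), and Nfkbia, Nfkbiz, Nfkbid, Tnfaip3 and Birc3 (inhibitors, modulators and a ubiquitin ligase). They were picked by symbol, each symbol had 1 row, and they are 9 of the 32285 genes of the matrices. Single cells came from 2 brain tissues, hippocampus and cortex, of mice given DOCA-salt, a mineralocorticoid with salt that is used to raise blood pressure in rodents, or sham treatment. Each of the 4 combinations of tissue and treatment has 1 droplet library of transcript 3' ends, and all mice are labelled WT. There were 3 mice in a group, and pooling of their cells is not stated. Age, sex, dose and length of treatment are not given in the sources used here.

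Groups were read from the titles. In 2 libraries, cortex DOCA-salt and hippocampus sham, another label field names the opposite treatment, so every direction between treatments below rests on the titles. With 1 library per group no test was run. Levels are given as UMIs (unique molecular identifiers, counted transcript molecules) of a gene per 1000000 UMIs of a cell class in a library (CPM). Ratios carry exact 95% intervals that cover counting error only, not the spread between animals, preparations or cells. The libraries held between 11159 and 11402 barcodes and between 66824217 and 70173987 UMIs, and 10349 to 10761 cells were kept per library. Between 94 and 105 barcode sequences were shared by each pair of libraries. Cells were put in classes by lists of marker genes and are called microglia-like, endothelial-like and so on. Classes with at least 100 cells in every library were compared, which left 5: 2357 to 2722 microglia-like, 2858 to 5061 oligodendrocyte-like, 931 to 4121 astrocyte-like, 698 to 1082 endothelial-like and 103 to 199 pericyte-like cells per library. In each of these 5 classes 3 to 7 of its own markers, and 0 of another class, were among its 10 leading genes. The same markers had set the classes, so this count describes the gate and is no check of it. Neurons were nearly missing, with 0 to 10 neuron-like cells per library.

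NF-kB is a family of dimers that wait in the cytoplasm, bound to inhibitory IkB proteins. Signals from receptors for tumour necrosis factor, interleukin-1 or microbial products activate a kinase complex that marks the IkB proteins for destruction, and the freed dimers enter the nucleus. Rela with the p50 product of Nfkb1 is the main dimer of this fast, canonical branch, while Relb with the p52 product of Nfkb2 serves a slower, non-canonical branch. Several NF-kB target genes encode brakes or modulators of the pathway. Nfkbia encodes IkB-alpha, which is resynthesised after activation and pulls the dimers back out of the nucleus. Nfkbiz and Nfkbid encode nuclear IkB proteins (IkB-zeta and IkBNS) that tune single target genes. Tnfaip3 encodes A20, a ubiquitin-editing enzyme that shuts off signalling upstream of the kinase. Birc3 encodes cIAP2, a ubiquitin ligase of tumour necrosis factor receptor complexes. In the brain the pathway is best known from microglia and from vascular endothelium in inflammation.

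Promoter sequences of RefSeq (GRCm38.p6, 250 bases before to 50 bases after a transcript start) were at hand for 6 of the 9 genes, 11 promoters in all. Nfkbiz, Relb and Nfkb1 had no entry in the table. The promoters below are shown because they hold a kB element, the sequence that NF-kB dimers bind, in a gene whose product feeds back on NF-kB. The form searched, on both strands, was GGG, then any 2 bases, then TTTCC, and 0 promoters matched it on both strands at one place. Capitals mark the match. In Nfkbia and Tnfaip3 the match lies on the opposite strand, so its reverse complement is in capitals.

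Nfkbia, chr12:55492598-55492897, minus strand: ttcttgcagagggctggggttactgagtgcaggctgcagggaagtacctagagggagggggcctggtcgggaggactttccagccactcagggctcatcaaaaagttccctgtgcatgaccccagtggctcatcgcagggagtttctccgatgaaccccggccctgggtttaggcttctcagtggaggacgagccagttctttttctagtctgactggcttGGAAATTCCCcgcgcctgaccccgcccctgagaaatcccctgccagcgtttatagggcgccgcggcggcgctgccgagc

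Tnfaip3, chr10:19015361-19015660, minus strand: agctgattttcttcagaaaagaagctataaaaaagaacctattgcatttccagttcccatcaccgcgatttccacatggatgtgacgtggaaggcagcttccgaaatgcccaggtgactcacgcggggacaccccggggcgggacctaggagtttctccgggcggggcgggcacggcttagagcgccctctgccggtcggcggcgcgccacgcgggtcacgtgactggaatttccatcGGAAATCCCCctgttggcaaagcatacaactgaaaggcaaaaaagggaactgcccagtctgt

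Nfkb2, chr19:46304487-46304786, plus strand: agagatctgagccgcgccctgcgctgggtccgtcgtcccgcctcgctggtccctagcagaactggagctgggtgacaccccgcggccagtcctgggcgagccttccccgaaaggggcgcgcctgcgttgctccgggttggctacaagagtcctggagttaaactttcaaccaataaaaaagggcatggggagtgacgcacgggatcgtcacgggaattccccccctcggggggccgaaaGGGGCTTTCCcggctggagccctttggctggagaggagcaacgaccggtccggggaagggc

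The match began 29 bases before the start in Nfkbia, 12 bases before it in this promoter of Tnfaip3 and 11 bases before it in this promoter of Nfkb2. The other 2 Nfkb2 promoters shared 1 further match, GGGACTTTCC. Neither the second Tnfaip3 promoter nor those of Nfkbid (3), Rela (1) and Birc3 (1) held this form. Of all 32851 promoters of this length, 535 (1.63%) matched, beside 5 of these 11, which come from 3 of the 6 genes. A match is a string of letters and not a shown binding site.

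By the GENCODE vM21 annotation (GRCm38), Nfkbia spans chr12:55489410-55492647 on the minus strand, Tnfaip3 chr10:19000910-19015657 on the minus strand and Birc3 chr9:7848699-7873186 on the minus strand. Nfkbiz spans chr16:55811375-55838899 on the minus strand, and Nfkbid spans chr7:30421732-30428746 on the plus strand. Among the subunits, Rela lies at chr19:5637483-5648130 (plus), Relb at chr7:19606217-19629438 (minus), Nfkb1 at chr3:135584655-135691547 (minus) and Nfkb2 at chr19:46304320-46312385 (plus). Nfkb2 overlaps 2 counted genes on the opposite strand, Psd and AC114539.1, with 395 and 2169 UMIs in all cells against 5467 for Nfkb2. Whether counting used strand is not given in the sources used here, so its values are less certain than those of the other members. A 3' UMI count does not allow levels of different genes to be compared, and levels are compared below only within a gene.

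All 9 genes were highest in microglia-like cells among the 5 classes, in all 4 libraries, and endothelial-like cells had the next highest mean for every one of them. Microglia-like cells held 67.7% to 77.8% of the Nfkbia UMIs of a library and 83.6% to 90.2% of those of Tnfaip3, although they made up only 22.1% to 25.3% of the cells. For Rela the share was 28.8% to 43.3%. For the other subunits it was 69.4% to 74.9% (Nfkb1), 57.6% to 68.1% (Relb) and 59.2% to 69.3% (Nfkb2). Rela was thus the member spread most over the classes, and Nfkb1 had a share like that of Nfkbia.

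Among the feedback genes, Nfkbia in microglia-like cells stood at 4198 CPM in DOCA-salt and 3691 CPM in sham hippocampus, and at 3739 CPM in DOCA-salt and 2988 CPM in sham cortex. In endothelial-like cells it stood at 2109 CPM in DOCA-salt and 1853 CPM in sham hippocampus, and at 1844 CPM in DOCA-salt and 1730 CPM in sham cortex. Pericyte-like cells followed with 477 to 740 CPM over the 4 libraries. Oligodendrocyte-like cells (196 to 240 CPM) and astrocyte-like cells (185 to 205 CPM) came last and overlapped each other, while the 3 higher classes did not overlap.

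Nfkbiz in microglia-like cells had 911 CPM in DOCA-salt and 1058 CPM in sham hippocampus, and 995 CPM in DOCA-salt and 1087 CPM in sham cortex. Its levels were 149 to 191 CPM in endothelial-like cells, 73.1 to 114 CPM in pericyte-like cells and 31.7 to 46.8 CPM in astrocyte-like and oligodendrocyte-like cells. The order of the upper 3 classes was that of Nfkbia, without overlap, and the lower 2 overlapped.

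Tnfaip3 in microglia-like cells had 419 CPM in DOCA-salt and 367 CPM in sham hippocampus, and 512 CPM in DOCA-salt and 454 CPM in sham cortex. The next class was far lower: the mean over libraries was 438 ± 60.9 CPM in microglia-like and 32.3 ± 9.72 CPM in endothelial-like cells (SD, n = 4 libraries of different groups). In the other 3 classes it lay between 7.76 and 18.4 CPM, and these classes overlapped.

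Nfkbid in microglia-like cells had 205 CPM in DOCA-salt and 165 CPM in sham hippocampus, and 231 CPM in DOCA-salt and 213 CPM in sham cortex. In endothelial-like cells it lay between 19.3 and 25.6 CPM. Birc3 in microglia-like cells had 186 CPM in DOCA-salt and 161 CPM in sham hippocampus, and 183 CPM in DOCA-salt and 156 CPM in sham cortex. It lay between 26.9 and 39.8 CPM in endothelial-like cells, overlapping pericyte-like cells (8.63 to 28.3 CPM), and between 2.74 and 4.26 CPM in oligodendrocyte-like cells.

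Of the subunits, Rela was spread most evenly over the classes. Rela, the transactivating partner of the main dimer, had 105 CPM in DOCA-salt and 90.3 CPM in sham hippocampus, and 104 CPM in DOCA-salt and 113 CPM in sham cortex, in microglia-like cells. It had 75.1 to 83.3 CPM in endothelial-like, 64.1 to 69.0 CPM in pericyte-like, 54.6 to 59.1 CPM in oligodendrocyte-like and 31.1 to 32.5 CPM in astrocyte-like cells. No 2 neighbouring classes in this order overlapped.

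Relb in microglia-like cells had 98.1 CPM in DOCA-salt and 91.6 CPM in sham hippocampus, and 110 CPM in DOCA-salt and 106 CPM in sham cortex. Endothelial-like (20.9 to 36.3 CPM), pericyte-like (12.9 to 35.0 CPM) and oligodendrocyte-like cells (16.6 to 24.8 CPM) overlapped, and astrocyte-like cells were lowest at 8.17 to 16.4 CPM. Nfkb1 in microglia-like cells had 302 CPM in DOCA-salt and 282 CPM in sham hippocampus, and 408 CPM in DOCA-salt and 384 CPM in sham cortex. It had 66.2 to 73.9 CPM in endothelial-like cells, and astrocyte-like cells (52.4 to 55.4 CPM) overlapped pericyte-like cells (48.9 to 58.2 CPM). Its lowest class was oligodendrocyte-like cells, at 17.2 CPM or less. Nfkb2 in microglia-like cells had 57.4 CPM in DOCA-salt and 53.1 CPM in sham hippocampus, and 69.4 CPM in DOCA-salt and 62.4 CPM in sham cortex, against 15.9 to 23.3 CPM in endothelial-like cells.

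**Figure D1:**
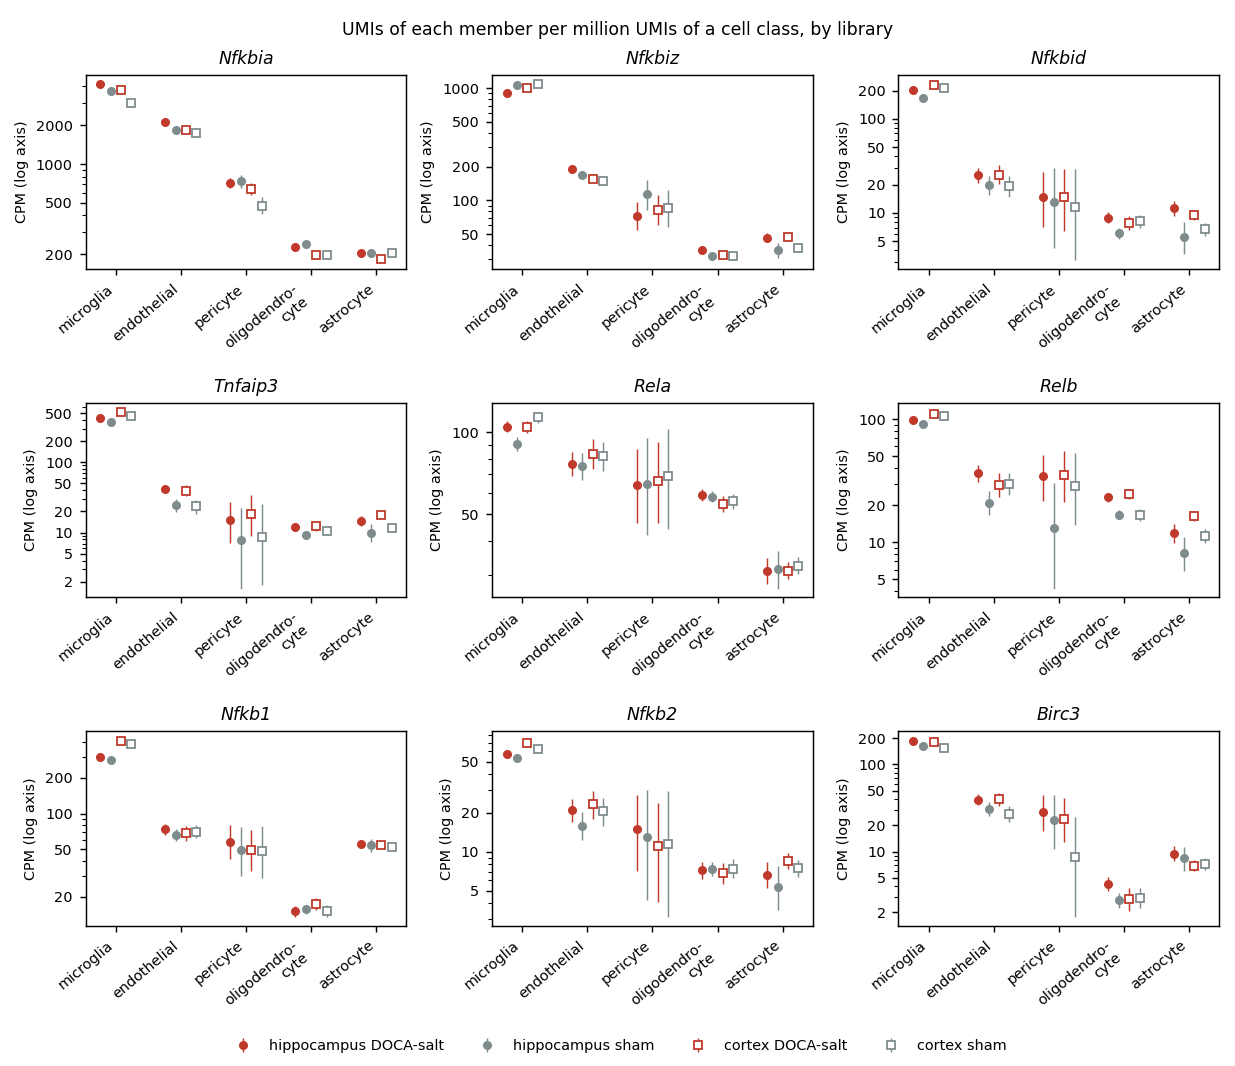
Level of each of the 9 genes (CPM, log axis, scale set per gene) in 5 cell classes and 4 libraries. Points are library sums and bars are exact 95% Poisson intervals of counting error, which are wide in pericyte-like cells. The microglia-like points lie above every other class, by little for Rela (90.3 to 113 CPM, against 75.1 to 83.3 CPM in endothelial-like cells) and by much for Tnfaip3.

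Free RNA in droplets carries UMIs of one cell type into others, so levels outside microglia-like cells were set beside those of 8 microglial genes (C1qa, C1qb, C1qc, Csf1r, Ctss, Tyrobp, Fcer1g and Trem2), a list added after the values were seen. None of the 8 was at 0 in any class. In oligodendrocyte-like cells these genes stood at 2.07% to 4.64% of their microglial level. Tnfaip3 (2.32% to 2.90%), Nfkbiz (2.92% to 4.0%) and Nfkbid (3.39% to 4.34%) lay inside that range, and Birc3 (1.56% to 2.29%) lay at or under its lower end. By this measure these 4 genes could not be told from background in oligodendrocyte-like cells, and expression of their own was not tested. Nfkbid in cortex sham (3.82%) lay above the highest microglial gene of its own library (3.55%). Nfkbia (5.24% to 6.59%) lay above the range over libraries, and Nfkb1 (3.97% to 5.54%) near its upper end. Relb (15.7% to 23.6%), Nfkb2 (9.86% to 14.0%) and Rela (49.2% to 64.3%) lay well above it. Within its own library, Nfkb1 lay above the highest microglial gene in hippocampus DOCA-salt and in both sham libraries. In cortex DOCA-salt it lay under that gene (4.223% against 4.335%).

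In astrocyte-like cells the microglial genes stood at 2.31% to 5.77% of their microglial level, and Nfkbiz (3.39% to 5.13%), Nfkbid (3.16% to 5.52%), Tnfaip3 (2.58% to 3.54%) and Birc3 (3.78% to 5.19%) lay inside that range, taken over the 4 libraries. Nfkbia (4.89% to 6.81%) and Birc3 lay within the range of their own library in both DOCA-salt libraries and above it in both sham libraries. Nfkb1 (13.4% to 19.2%), Relb (8.91% to 14.9%), Nfkb2 (10.1% to 12.3%) and Rela (28.6% to 34.8%) lay above it. In endothelial-like cells every member lay above the median microglial gene of the same library. Nfkbia stood at 49.3% to 57.9% of its microglial level there. Tnfaip3 was the closest to background, at 5.19% to 10.01%, against 2.48% to 6.43% for the microglial genes. In pericyte-like cells Tnfaip3 (1.90% to 3.60%) lay inside or under the range of the microglial genes, and the other 8 genes lay above the median microglial gene.

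**Figure D2:**
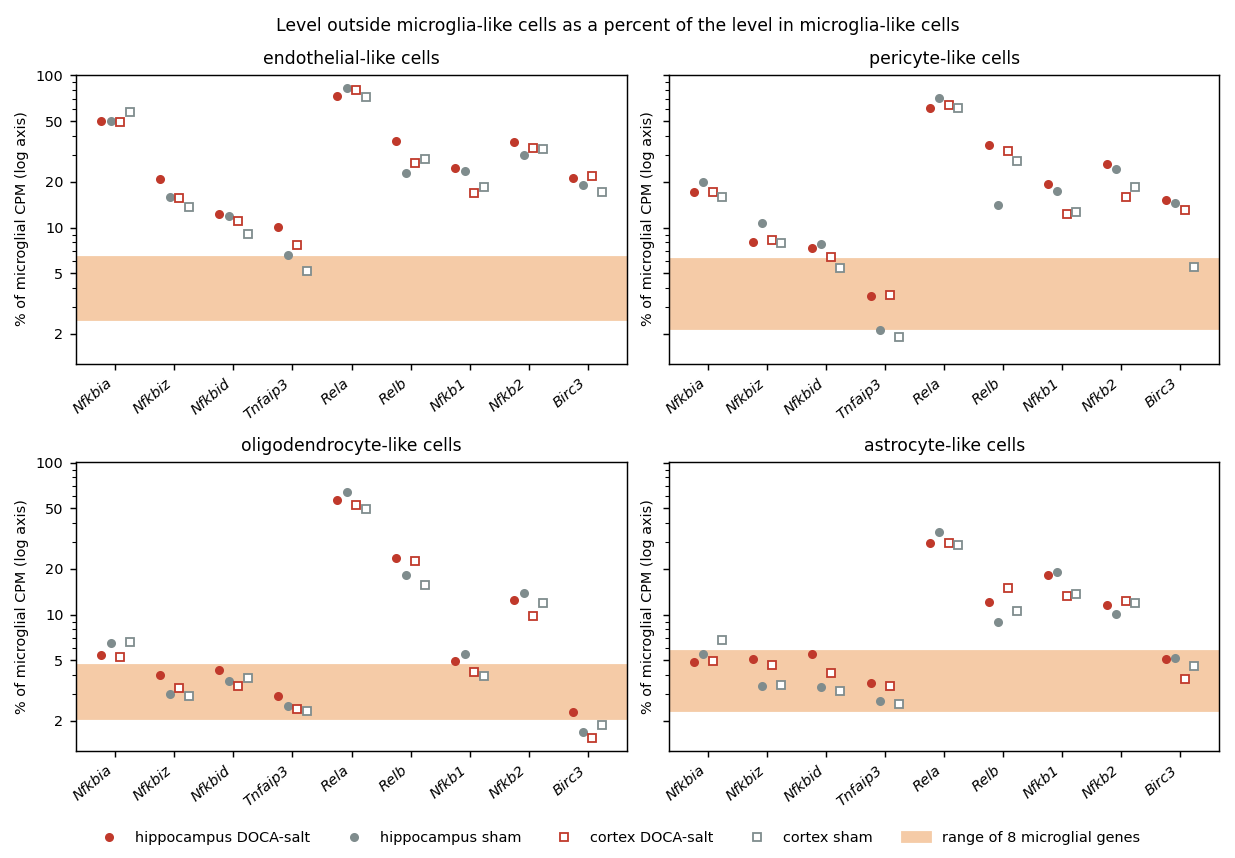
Level of each gene outside microglia-like cells as a percent of its microglia-like level in the same library (log axis). The shaded band is the range of 8 microglial genes over the 4 libraries. In oligodendrocyte-like cells Nfkbiz, Nfkbid and Tnfaip3 fall in the band and Birc3 at or under its lower end, while Rela stands at 49.2% to 64.3%.

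Classes too rare to compare between treatments were described by level where a library held at least 20 of their cells. In border-macrophage-like cells (51 to 97 per library), the macrophages of vessels and meninges, Nfkbiz was higher than in microglia-like cells of the same library, at 131% to 197% of the microglial level. Tnfaip3 was highest in T- or NK-cell-like cells (24 to 59 per library), with 656 CPM in DOCA-salt and 559 CPM in sham hippocampus, and 684 CPM in DOCA-salt and 568 CPM in sham cortex, which is 125% to 157% of its microglial level. The counting intervals of the classes overlapped in cortex sham (416 to 758 and 443 to 464 CPM) and not in the other 3 libraries. In these cells the 8 microglial genes had medians of 3.03% to 3.58%. B-cell-like cells could be read in the 2 DOCA-salt libraries only, with 57 cells in hippocampus and 31 in cortex. They had 424 and 374 CPM of Birc3, 123 and 110 CPM of Nfkb2 and 138 and 143 CPM of Relb. The UMIs behind these values were few, between 10 and 86 per gene and library. Birc3 lay above its microglia-like level beyond counting error in both libraries, and Nfkb2 did in hippocampus. The counting intervals of the classes overlapped for Nfkb2 in cortex and for Relb in both.

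DOCA-salt and sham were compared next, within each tissue. A gene was counted as higher or lower in a class when its CPM differed by at least 1.5-fold, its interval excluded 1, and the 2 libraries held at least 20 of its UMIs. Over 5 classes the 9 genes give 45 pairs of gene and class. In hippocampus 42 pairs had enough UMIs, of which 4 were higher and 1 was lower in DOCA-salt, while 4.60% and 3.13% of all gene and class pairs were. In cortex 41 pairs had enough, of which 1 was higher and 0 were lower, against 4.95% and 2.43% of all pairs. Those shares of the members are not far from the background, and no member reached 1.5-fold in microglia-like cells in either tissue, where 3.75% (hippocampus) and 5.06% (cortex) of all genes were higher and 3.88% and 1.74% were lower. The median log2 ratio over the members of a class was between -0.01 and 0.35, beside -0.02 to 0.06 for all genes.

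In endothelial-like cells Tnfaip3 was higher in DOCA-salt in both tissues. It stood at 41.9 CPM in DOCA-salt and 24.4 CPM in sham hippocampus (202 and 98 UMIs), and at 39.5 CPM in DOCA-salt and 23.5 CPM in sham cortex (117 and 78 UMIs). The ratios were 1.72 (95% interval 1.35 to 2.21) and 1.68 (1.25 to 2.26). In this class 4.75% of all genes in hippocampus and 3.99% in cortex were higher. Within the cluster that held 79.6% to 82.5% of the endothelial-like cells of each library (led by Itm2a, Cldn5 and Flt1), the ratios were 1.79 and 1.57. Microglial RNA moved the same way here: the 8 microglial genes summed to 1454 CPM in DOCA-salt and 1164 CPM in sham hippocampus, and to 1278 CPM in DOCA-salt and 1042 CPM in sham cortex. At the median share of those genes, microglial RNA alone would give Tnfaip3 levels of 19.2 CPM in DOCA-salt and 14.5 CPM in sham hippocampus, and 22.3 CPM in DOCA-salt and 16.9 CPM in sham cortex, and the measured levels exceeded these in all 4 libraries. The part of microglial RNA in the ratio was not tested.

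Relb in endothelial-like cells had 36.3 CPM in DOCA-salt and 20.9 CPM in sham hippocampus, a ratio of 1.74 (1.33 to 2.28). In cortex it had 29.3 CPM in DOCA-salt and 29.9 CPM in sham, a ratio of 0.98 (0.73 to 1.32), so the tissues differed in their values; the difference between them was not tested. Birc3 was at 1.28 (1.01 to 1.62) in hippocampus and 1.48 (1.12 to 1.97) in cortex, short of 1.5-fold in both. Nfkbia was at 1.14 (1.10 to 1.17) and 1.07 (1.03 to 1.11). Rela had ratios of 1.02 and 1.02, with intervals of 0.87 to 1.19 and 0.86 to 1.22. All 9 genes had ratios above 1 in hippocampus and 7 of 9 in cortex.

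**Figure D3:**
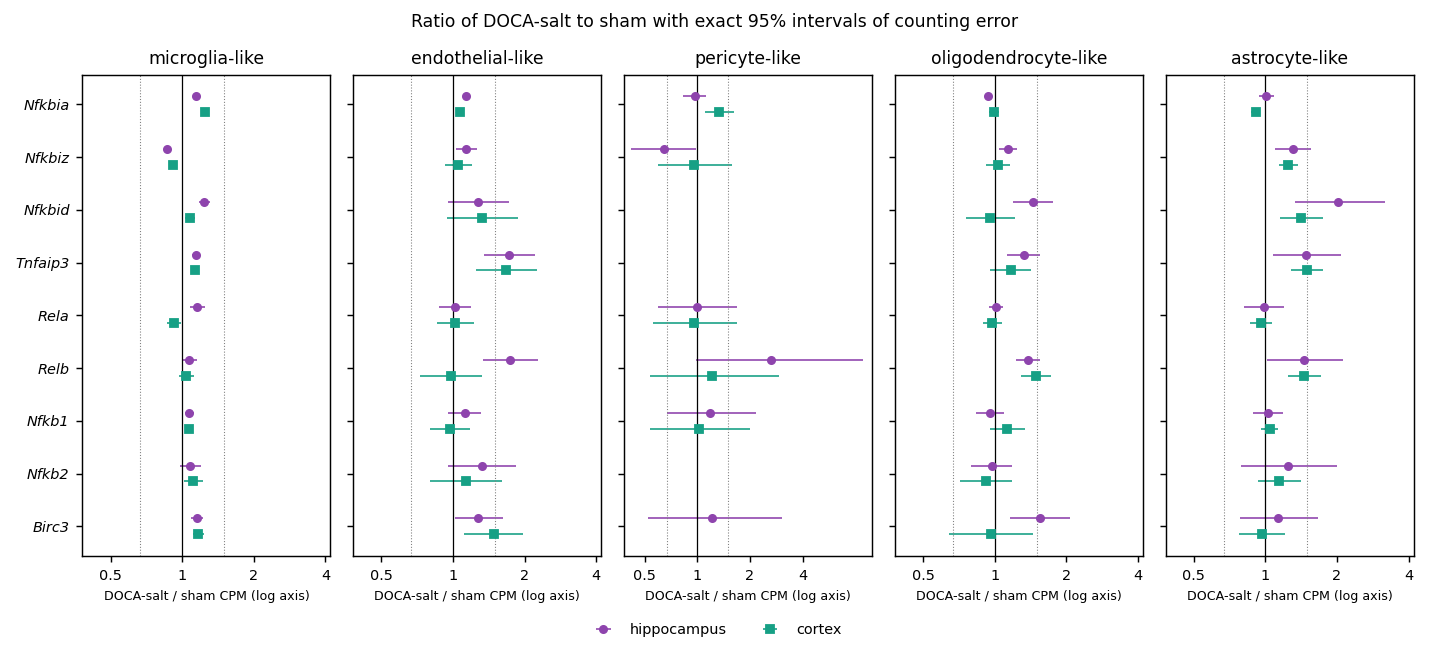
Ratio of DOCA-salt to sham CPM for each gene in 5 cell classes (log axis), in hippocampus (circles) and cortex (squares). Bars are exact 95% intervals of counting error, dotted lines mark 1.5-fold either way, and pairs with under 20 UMIs are left out. Microglia-like ratios lie between 0.86 and 1.25. Endothelial Tnfaip3 lies past 1.5-fold in both tissues, at 1.72 and 1.68.

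In microglia-like cells 2 of the feedback genes stood on opposite sides of 1. Nfkbia was at 4198 CPM in DOCA-salt and 3691 CPM in sham hippocampus, and at 3739 CPM in DOCA-salt and 2988 CPM in sham cortex, with ratios of 1.14 (1.12 to 1.15) and 1.25 (1.24 to 1.27). Nfkbiz was at 911 CPM in DOCA-salt and 1058 CPM in sham hippocampus, and at 995 CPM in DOCA-salt and 1087 CPM in sham cortex, with ratios of 0.86 (0.84 to 0.88) and 0.92 (0.90 to 0.94). Tnfaip3 had ratios of 1.14 (1.10 to 1.18) and 1.13 (1.09 to 1.17), and Birc3 1.15 (1.09 to 1.22) and 1.17 (1.11 to 1.24). Nfkbid stood at 1.24 (1.17 to 1.31) in hippocampus and 1.08 (1.03 to 1.13) in cortex. Of the subunits, Nfkb1 had 1.07 (1.02 to 1.12) and 1.06 (1.03 to 1.10), and Relb and Nfkb2 lay between 1.04 and 1.11. Without replicates these differences of under 1.3-fold cannot be set against the spread between animals.

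The microglia-like cells of the libraries fell in the same clusters in different shares. The cluster led by Gpr84, Il1a and Bcl2a1b held 36.7% of them in hippocampus DOCA-salt and 22.4% in hippocampus sham, and 63.7% in cortex DOCA-salt and 57.2% in cortex sham. The cluster led by Ifnb1, Ifih1 and Cxcl10 held 19.7% in hippocampus DOCA-salt and 49.2% in hippocampus sham. The microglial levels were therefore also read within clusters. Nfkbia had ratios above 1 in all 4 clusters that held at least 100 cells in every library, in both tissues. In the Gpr84 cluster it had 4264 CPM in DOCA-salt and 3289 CPM in sham hippocampus, and 3700 CPM in DOCA-salt and 2859 CPM in sham cortex, with ratios of 1.30 (1.27 to 1.33) and 1.29 (1.27 to 1.31). In the Ifnb1 cluster its ratios were 1.19 and 1.24, in the cluster led by Ptpro and Mir142hg 1.18 and 1.12, and in the shallow cluster led by Aif1 and Ccl6 1.76 and 1.20.

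Nfkbiz had ratios under 1 in both tissues in 3 of these 4 clusters: 0.93 and 0.93 in the Gpr84 cluster, 0.88 and 0.91 in the Ifnb1 cluster, and 0.93 and 0.91 in the Ptpro cluster. In the Aif1 cluster, with 124 to 186 cells per library, it was at 1.23 (0.80 to 1.91) in hippocampus and 0.64 (0.47 to 0.87) in cortex. Tnfaip3 was at 1.28 and 1.19 in the Gpr84 cluster and at 1.24 and 1.07 in the Ifnb1 cluster. In the Ptpro cluster it was at 1.22 in hippocampus and 0.89 (0.78 to 1.01) in cortex. Across clusters Tnfaip3 was lowest in the Aif1 cluster (77.9 to 231 CPM) and highest in the Ifnb1 and Gpr84 clusters (390 to 587 CPM). The clusters were made from variable genes of these same cells, so differences between clusters are a description.

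**Figure D4:**
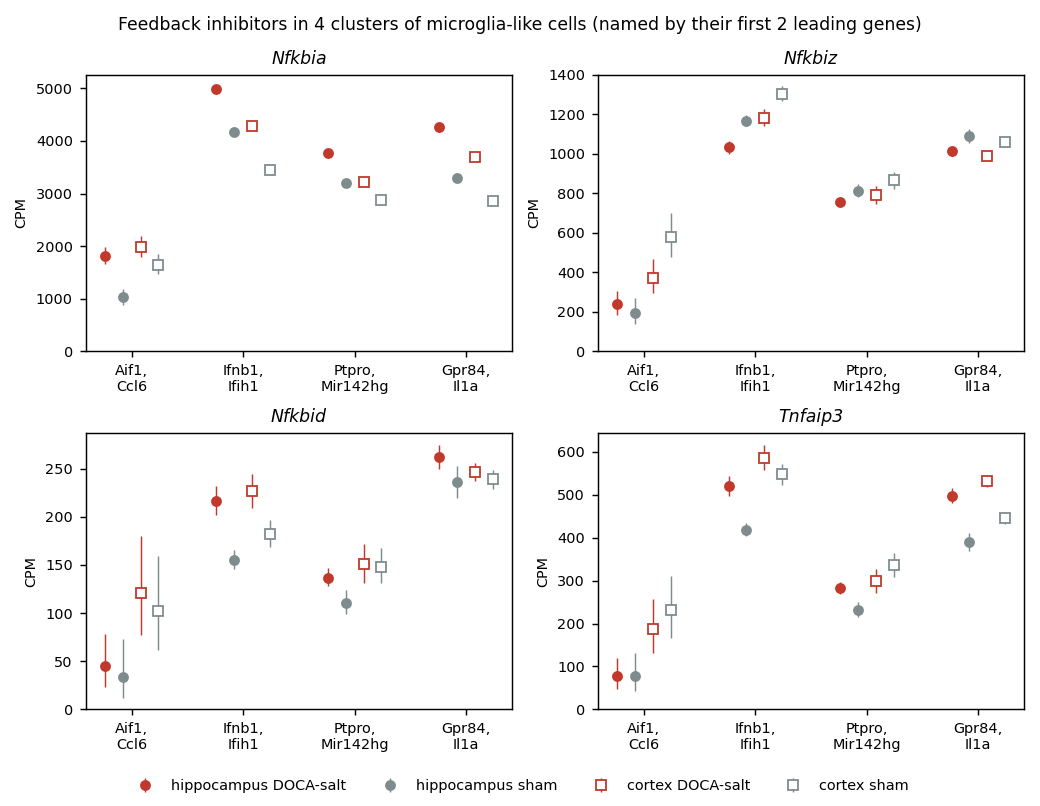
CPM of Nfkbia, Nfkbiz, Nfkbid and Tnfaip3 in 4 clusters of microglia-like cells, each named by its first 2 leading genes, by library, with exact 95% Poisson intervals of counting error. Nfkbia in DOCA-salt lies above sham of the same tissue in every cluster, such as 4264 against 3289 CPM in the Gpr84 cluster of hippocampus. Nfkbiz lies below it in the 3 larger clusters.

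In border-macrophage-like cells Nfkbia and Nfkbiz lay the other way round from microglia-like cells. Nfkbia was at 1613 CPM in DOCA-salt and 2720 CPM in sham hippocampus (904 and 1251 UMIs), and at 1631 CPM in DOCA-salt and 1991 CPM in sham cortex (562 and 559 UMIs), with ratios of 0.59 (0.54 to 0.65) and 0.82 (0.73 to 0.92). Nfkbiz was at 1790 CPM in DOCA-salt and 1398 CPM in sham hippocampus, and at 1892 CPM in DOCA-salt and 1428 CPM in sham cortex, with ratios of 1.28 (1.16 to 1.42) and 1.32 (1.17 to 1.5). These sums come from 97 and 88 cells in hippocampus and 65 and 51 cells in cortex, under the number set for a comparison, so they are given as values. The difference between the macrophage classes was not tested. Erythroid-like cells (138 and 110 in hippocampus, 59 and 57 in cortex) had 372 CPM of Nfkbia in DOCA-salt and 1022 CPM in sham hippocampus, and 261 CPM in DOCA-salt and 437 CPM in sham cortex, with ratios of 0.36 (0.32 to 0.41) and 0.60 (0.47 to 0.76). The DOCA-salt values were 8.87% (hippocampus) and 6.98% (cortex) of the microglia-like level. Both lay inside the range of the 8 microglial genes there (5.41% to 9.92% and 4.94% to 9.15%). The sham values, 27.7% and 14.6%, lay above the ranges of their libraries. The part of microglial RNA in these ratios was not tested. In T- or NK-cell-like cells Nfkbia stood at 1827 CPM in DOCA-salt and 1247 CPM in sham hippocampus, and at 1080 CPM in DOCA-salt and 642 CPM in sham cortex.

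**Figure D5:**
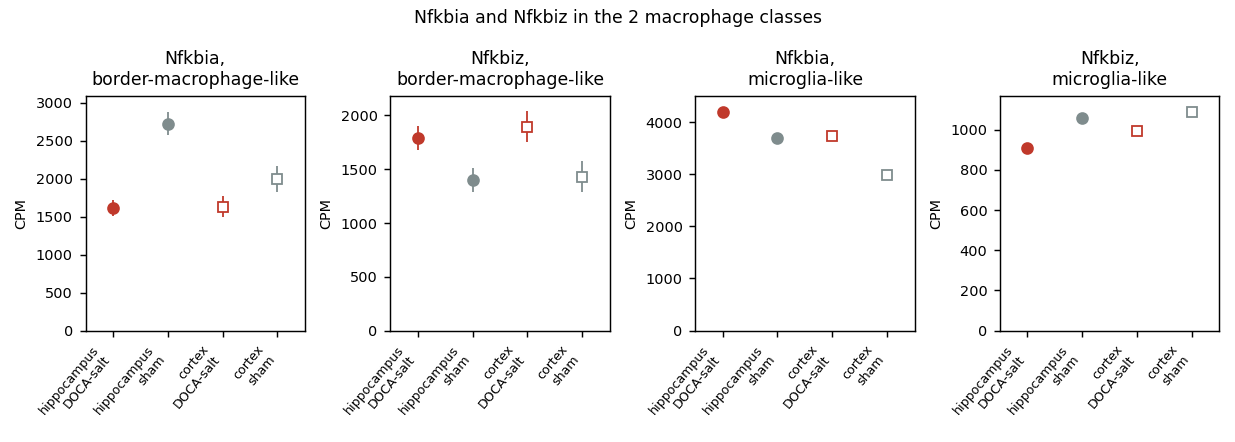
CPM of Nfkbia and Nfkbiz in border-macrophage-like and microglia-like cells by library, with exact 95% Poisson intervals of counting error. In border-macrophage-like cells Nfkbia lies lower and Nfkbiz higher in DOCA-salt than in sham of the same tissue (1613 against 2720 CPM and 1790 against 1398 CPM in hippocampus). Both lie the other way round in microglia-like cells.

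In oligodendrocyte-like cells Relb was the one member above background whose interval lay above 1 in both tissues. It had 23.1 CPM in DOCA-salt and 16.8 CPM in sham hippocampus, and 24.8 CPM in DOCA-salt and 16.6 CPM in sham cortex, with ratios of 1.38 (1.23 to 1.55) and 1.49 (1.29 to 1.73). These fall just short of 1.5-fold. Birc3 was counted as higher in hippocampus, at 4.26 CPM in DOCA-salt and 2.74 CPM in sham (105 and 94 UMIs), a ratio of 1.55 (1.16 to 2.07), where 7.04% of all genes were higher in this class. That level lay at or under microglial background. The cells also sat in different clusters: one led by Anln, Bcat1 and Polr3e held 71.3% of the oligodendrocyte-like cells of hippocampus sham, and without it the Birc3 ratio was 0.86 and that of Relb 1.43. In cortex Birc3 had a ratio of 0.97 (0.64 to 1.45).

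In astrocyte-like cells Relb had 11.9 CPM in DOCA-salt and 8.17 CPM in sham hippocampus, and 16.4 CPM in DOCA-salt and 11.2 CPM in sham cortex, with ratios of 1.45 (1.01 to 2.12) and 1.46 (1.24 to 1.71). Nfkbid was counted as higher in hippocampus, at 11.3 CPM in DOCA-salt and 5.58 CPM in sham (122 and 28 UMIs), a ratio of 2.03 (1.33 to 3.17), where 3.62% of all genes were higher. In cortex Nfkbid had a ratio of 1.42 (1.15 to 1.75). Tnfaip3 had ratios of 1.49 (1.08 to 2.09) and 1.49 (1.28 to 1.75), and Nfkbiz 1.30 (1.10 to 1.55) and 1.25 (1.14 to 1.37). Nfkbid, Tnfaip3 and Nfkbiz lay in the range of microglial background here. The 8 microglial genes summed to 1418 CPM in DOCA-salt and 1103 CPM in sham hippocampus, and to 1236 CPM in DOCA-salt and 987 CPM in sham cortex. Their part in these ratios was not tested. Rela, Nfkb1 and Nfkbia had ratios between 0.91 and 1.04 in astrocyte-like cells.

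Immediate early and dissociation genes, a list of 20 that includes Fos, Egr1 and Hspa1a, moved with the treatments in the same 2 classes. The list was chosen with earlier results of these data known, so its counts only describe. In oligodendrocyte-like cells 12 of 20 were higher in DOCA-salt in hippocampus and 12 in cortex, with Fos at 1198 CPM in DOCA-salt and 415 CPM in sham hippocampus. In astrocyte-like cells 10 and 9 were higher. Over all genes 7.04% and 5.78% were higher in oligodendrocyte-like cells, and 3.62% and 5.85% in astrocyte-like cells. In microglia-like and endothelial-like cells 0 of 20 were higher in either tissue, beside 3.75% to 5.06% of all genes. In microglia-like cells 2 and 4 were lower, beside 3.88% and 1.74% of all genes. Whether the immediate early genes take part in the Relb values was not tested. In pericyte-like cells Nfkbiz was counted as lower in hippocampus, at 73.1 CPM in DOCA-salt and 114 CPM in sham, but on 49 and 44 UMIs, with a ratio of 0.64 (0.42 to 0.99), where 3.49% of all genes were lower. In cortex it was at 0.96 (0.59 to 1.58). Relb in pericyte-like cells had a ratio of 2.65 (0.99 to 8.93) in hippocampus, on 23 and 5 UMIs, and was not counted. In cortex Relb was at 1.22 (0.54 to 2.93), on 19 and 10 UMIs.

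The hippocampus libraries also differed in RNA from other cells. Choroid plexus genes (Ttr and 4 more) summed to 87.3 CPM in DOCA-salt and 3964 CPM in sham hippocampus within microglia-like cells, and the gate found 2 and 308 choroid-plexus-like cells in these libraries. Neutrophil genes summed to 143 CPM in DOCA-salt and 4.21 CPM in sham hippocampus, and to 21.8 CPM in DOCA-salt and 9.97 CPM in sham cortex. Haemoglobin genes summed to 811 CPM in DOCA-salt and 448 CPM in sham hippocampus, and to 490 CPM in DOCA-salt and 332 CPM in sham cortex. A list of 10 corticosteroid targets was also chosen with earlier results of these data known. Of these targets, 2 to 5 were lower in DOCA-salt in each class and tissue, beside 1.74% to 3.88% of all genes. Higher ones were 1 in oligodendrocyte-like cells of each tissue, Pdk4 with ratios of 1.85 and 1.90, and 2 in astrocyte-like cells of cortex. Examples of lower ones were Fkbp5 in microglia-like cells at 33.4 CPM in DOCA-salt and 54.2 CPM in sham hippocampus, and Zbtb16 in endothelial-like cells at 11.4 CPM in DOCA-salt and 91.0 CPM in sham hippocampus. The part of these RNAs in the members' values was not tested.

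Hippocampus was then compared with cortex within each treatment, with the same limits. In DOCA-salt 43 pairs had enough UMIs and 0 were higher or lower, against 3.44% and 4.37% of all gene and class pairs. In sham 40 pairs had enough, of which 1 was higher and 0 were lower, against 5.32% and 4.68%. The 1 was Nfkbia in pericyte-like cells, at 740 CPM in hippocampus and 477 CPM in cortex (1.55, 1.28 to 1.89; 286 and 166 UMIs), where 3.36% of all genes were higher. In DOCA-salt it had a ratio of 1.12 (0.97 to 1.29).

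In microglia-like cells the subunit Nfkb1 was lower in hippocampus in both treatments, though short of 1.5-fold. It had 302 CPM in hippocampus and 408 CPM in cortex of DOCA-salt, a ratio of 0.74 (0.71 to 0.77), and 282 CPM in hippocampus and 384 CPM in cortex of sham, again 0.74 (0.705 to 0.767). Tnfaip3 had ratios of 0.82 and 0.81, Nfkb2 0.83 and 0.85, and Relb 0.89 and 0.87. Nfkbid had 0.89 and 0.78, and Nfkbiz 0.92 and 0.97. The intervals of these genes lay below 1 in both treatments. Nfkbia was the 1 member with intervals above 1 in both, at 1.12 (1.11 to 1.14) and 1.24 (1.22 to 1.25). Rela had 1.0 (0.94 to 1.07) in DOCA-salt and 0.80 (0.74 to 0.86) in sham. The Gpr84 cluster held more microglia-like cells in cortex than in hippocampus, and Nfkb1 differed in the same direction inside it, at 359 CPM in hippocampus and 438 CPM in cortex of DOCA-salt, and 335 CPM in hippocampus and 407 CPM in cortex of sham.

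Another 85 genes of the pathway were listed: receptors, adaptors, kinases, further negative regulators, further subunits and IkB proteins, and target genes. The lists were chosen with earlier results of these data known. Their counts beside the shares over all genes therefore describe these genes and do not test the pathway. In endothelial-like cells 12 of 78 with enough UMIs were higher and 4 lower in DOCA-salt hippocampus, and 8 of 76 were higher and 1 lower in DOCA-salt cortex. Over all genes of this class 4.75% were higher and 2.77% lower in hippocampus, and 3.99% higher and 2.68% lower in cortex. In microglia-like cells 2 of 80 were higher and 2 lower in hippocampus, and 6 of 81 higher and 1 lower in cortex, where the shares over all genes are those given above (3.75% and 3.88% in hippocampus, 5.06% and 1.74% in cortex). Of the 10 kinase genes 0 were higher or lower in any of the 5 classes in either tissue, with 7 of them measured in pericyte-like cells and all 10 elsewhere. The median log2 ratio of the 85 genes was 0.19 and 0.11 in endothelial-like cells and 0.02 and 0.03 in microglia-like cells. Of the target genes, 7 of 21 were higher in endothelial-like cells of hippocampus and 8 of 21 in cortex. The counts were 7 of 19 and 7 of 21 in astrocyte-like cells, 5 of 21 and 7 of 20 in oligodendrocyte-like cells, and 2 of 22 and 6 of 22 in microglia-like cells. Over all genes 3.62% and 5.85% were higher in astrocyte-like cells, and 7.04% and 5.78% in oligodendrocyte-like cells. The astrocyte-like counts include Il1b and Cxcl1 and the oligodendrocyte-like counts Lcn2 and Cxcl1, whose low levels are given below.

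Named by the strength of the weaker tissue, the endothelial-like target genes that were higher in both tissues began with Lcn2, which encodes the iron-binding protein lipocalin-2. It had 148 CPM in DOCA-salt and 6.22 CPM in sham hippocampus, and 135 CPM in DOCA-salt and 7.85 CPM in sham cortex. Lcn2 is also a neutrophil gene, and in oligodendrocyte-like cells it stood at 6.57 CPM in DOCA-salt hippocampus and 1.45 CPM in DOCA-salt cortex. Il1b, the cytokine interleukin-1 beta, had 12.3 CPM in DOCA-salt and 1.99 CPM in sham hippocampus, and 8.09 CPM in DOCA-salt and 2.11 CPM in sham cortex. These levels rest on 59 UMIs in DOCA-salt and 8 in sham hippocampus, and on 24 in DOCA-salt and 7 in sham cortex. It is a microglial gene too, and stood at 16.9% of its microglia-like level in DOCA-salt and 4.02% in sham hippocampus, and at 7.58% in DOCA-salt and 3.08% in sham cortex. The 2 DOCA-salt values lie above the highest of the 8 microglial genes in their library (6.43% and 6.04%) and the 2 sham values inside the range, and the part of microglial RNA was not tested. Ptgs2, the inducible cyclooxygenase, had 20.6 CPM in DOCA-salt and 9.45 CPM in sham hippocampus, and 24.6 CPM in DOCA-salt and 5.73 CPM in sham cortex. Csf1, a growth factor for microglia and macrophages, had ratios of 1.80 and 2.10. Bcl2l1, which encodes the survival protein Bcl-xL, was lower, at 129 CPM in DOCA-salt and 260 CPM in sham hippocampus, and at 141 CPM in DOCA-salt and 266 CPM in sham cortex.

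In microglia-like cells the chemokine gene Cxcl2 was higher in both tissues, at 88.4 CPM in DOCA-salt and 44.9 CPM in sham hippocampus, and at 203 CPM in DOCA-salt and 124 CPM in sham cortex. Lcn2 was the other such gene there, at 6.09 CPM in DOCA-salt and 0.08 CPM in sham hippocampus, and it moved with the neutrophil RNA above. In oligodendrocyte-like and astrocyte-like cells the genes were the stress-induced Gadd45b, the phosphatase gene Dusp1 and the chemokine gene Cxcl1. Cxcl1 was low there, at 3.06 CPM in DOCA-salt and 0.60 CPM in sham hippocampus of astrocyte-like cells (33 and 3 UMIs). It stood at 4.66 CPM or less in oligodendrocyte-like cells, beside 0.86 to 1.83 CPM in microglia-like and 49.8 to 70.4 CPM in endothelial-like cells. The part of endothelial RNA in these Cxcl1 values was not tested. Dusp1 had 296 CPM in DOCA-salt and 138 CPM in sham hippocampus, and 366 CPM in DOCA-salt and 107 CPM in sham cortex, in oligodendrocyte-like cells. Gadd45b had 37.3 CPM in DOCA-salt and 14.5 CPM in sham hippocampus, and 36.0 CPM in DOCA-salt and 13.6 CPM in sham cortex, in astrocyte-like cells. It stood there at 5.11% to 11.1% of its microglia-like level, and the part of microglial RNA was not tested. Lcn2 also passed the limits in oligodendrocyte-like cells and Il1b in astrocyte-like cells, and neither is read as expression by these cells. Lcn2 in DOCA-salt hippocampus was at a like level in microglia-like (6.09 CPM), oligodendrocyte-like (6.57 CPM) and astrocyte-like cells (6.203 CPM). Il1b in astrocyte-like cells stood at 5.89% of its microglia-like level in DOCA-salt and 2.41% in sham hippocampus, and at 5.25% in DOCA-salt and 3.01% in sham cortex, against 2.31% to 5.77% for the microglial genes.

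Likeness of pattern was measured by Spearman correlation of log2(CPM + 1) over the 20 sums of class and library, among 11754 genes with enough UMIs. The points share libraries and classes, so the values only describe. Among the genes most like Nfkbia were H2-Q4 and Zfp36 (both 0.96). Nfkbiz was most like Tsc22d2, Elf1 and Tut7 (all 0.98), and Nfkbid most like Dusp2 (0.98), Il6ra (0.98) and Gngt2 (0.97). Tnfaip3 was most like Cd83 (0.97), Fam102b (0.94) and Ltc4s (0.94), and Birc3 most like Lrch1, Lyl1 and Nek7 (all 0.98). Among the subunits, Rela went with the ribosomal protein genes Rpl7a, Rps9 and Rplp1 (all 0.97), Relb with Spty2d1, Kpna4 and Eif1a (0.95 to 0.96), Nfkb1 with Kdm7a, Asap1 and Smad3 (0.96 to 0.97), and Nfkb2 with Ifrd1, Etf1 and Arf4 (0.96 to 0.97). Within the 9 genes the correlations ran between 0.65 for Relb and Nfkb1 and 0.95 for Nfkbiz and Nfkbid.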

How the data were processed

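Droplet libraries of transcript 3' ends from 4 groups, 1 library each, were used. Per the submitters' processing notes, fastp, STAR, Subread and Seurat and the build GRCm38 were used; versions, annotation and counting strand are not given in the sources used here. The deposited values are counts of UMIs per gene and barcode, as the authors left them, in 32285 rows. A barcode needed 300 genes or more, with mitochondrial UMIs no higher than 20%. Scrublet in scanpy 1.11.5 removed 480 to 737 doublets per library (4.27% to 6.65%). A cell joined a class when at least 3 of its markers were detected, the mean log2 score reached 0.75 and it led the next class by 0.5.

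UMIs were summed per class and library and scaled to 1000000. Ratios carry exact conditional 95% intervals. Counting intervals take UMIs as independent molecules. Leiden clusters (leidenalg 0.10.2, resolution 1, 2000 variable genes, 30 components, 15 neighbours) served as a check and for values within clusters. Named genes were the 9 members in every class compared, and of the pathway lists up to 4 genes per class and direction that were at least 1.5-fold apart in both tissues. The ratio method was tested on simulated Poisson counts, the model that its intervals assume. That run therefore does not bear on spread between cells or animals. TMM factors came from edgeR 4.0.16. The members, lists and class markers were chosen with earlier results of these data known, and the gate's minimum score was set after the values were seen. Doublet handling, the gate, the scaling, the depth and the limits were varied. Of the 3 genes most like Nfkbia, 1 is not reported here.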

Additional observations from a re-analysis of the deposited data

Results flagged for a closer look

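Rela in microglia-like cells had DOCA-salt to sham ratios on opposite sides of 1 in the 2 tissues, each with an interval that excludes 1. It stood at 105 CPM in DOCA-salt and 90.3 CPM in sham hippocampus, a ratio of 1.16 (95% counting interval 1.07 to 1.25). In cortex it stood at 104 CPM in DOCA-salt and 113 CPM in sham, a ratio of 0.921 (0.859 to 0.988). The difference between the tissues was not tested, since each ratio rests on 1 library per group.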

How the results depend on the processing

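Counts of members past 1.5-fold, over 45 pairs of gene and class, moved with the settings. Shares over all genes were computed for the reported setting only. The counts under other settings therefore have no background beside them and only show how the members' calls moved. For equal weight per cell, the interval of the summed UMIs was moved to the new ratio. It does not cover the error of that ratio, so calls with equal weight are less certain. For DOCA-salt against sham in hippocampus (4 higher and 1 lower as reported), equal weight per cell gave 8 higher and 0 lower. Thinning to one depth gave 1 higher there, and a 2-fold limit 1 higher and 0 lower. Classes from clusters, median-of-ratios scaling, TMM scaling and keeping doublets each gave 0 lower. In cortex (1 higher as reported), equal weight, thinning and a total without mitochondrial, ribosomal and haemoglobin UMIs gave 3 higher each, a larger gate lead and keeping doublets 2, and the 2-fold limit 0. For hippocampus against cortex in DOCA-salt (0 and 0 as reported), equal weight gave 3 higher and 2 lower, thinning 1 lower, and classes from clusters and a larger gate lead 1 higher each. In sham (1 higher and 0 lower as reported), the 2-fold limit gave 0 higher, and equal weight, thinning, classes from clusters and keeping doublets 1 lower each. Without the Anln oligodendrocyte cluster, an alternative chosen after seeing the data, the counts were 2 higher in cortex, 1 higher between tissues in DOCA-salt and 3 higher in sham. There Birc3 in oligodendrocyte-like cells had a hippocampus ratio of 0.856, and between tissues in sham Tnfaip3 had 1.51 and Birc3 1.66. Within single clusters, also chosen after seeing the data, Birc3 had 0.63 in oligodendrocyte-like cells of hippocampus in a small cluster (5 and 10 UMIs), and 1.44 and 1.26 in the 2 large ones. Nfkbiz in astrocyte-like cells of cortex had 0.533 in a shallow cluster (29 and 45 UMIs), and 1.33 and 1.16 in the 2 main ones. The cause of these changes was not tested. Endothelial Tnfaip3 was called in 11 of 12 settings in each tissue, with ratios of 1.54 to 1.79 in hippocampus and 1.57 to 2.06 in cortex. Birc3 in oligodendrocyte-like cells was called in 5 of 12, and Nfkbiz in pericyte-like cells in 6 of 12. The settings with no minimum of UMIs and with at least 50 UMIs could not change these calls, since each held more than 50 UMIs. Relb in pericyte-like cells of hippocampus, not called as reported, was called higher with TMM or median-of-ratios scaling, equal weight or doublets kept. No paired analysis was possible because each group holds 1 library, so no 2 groups share 2 replicate numbers, and no result comes from a test. A fit of treatment with tissue as a term over the 4 libraries was not run.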

Other observations

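Ependymal-like cells, which line the ventricles, were too rare to compare. On few UMIs, they had 27.7 CPM of Nfkb2 in hippocampus DOCA-salt (62 cells, 14 UMIs) and 33.4 CPM in hippocampus sham (64 cells, 17 UMIs). These are 48.3% and 62.9% of the microglia-like level of the same library. Smooth-muscle-like cells reached 20 cells in hippocampus sham alone (40 cells), where Nfkbiz stood at 29.9% of its microglia-like level.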
